A study of Mus musculus with 12 samples.

Results

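The 10 genes described here mark the endothelium of the glomerulus, the capillary tuft of the kidney filter: Pecam1, Cdh5, Kdr, Flt1, Tek, Emcn, Ehd3, Eng, Plvap and Vwf. They were taken by symbol from count tables of 23829 genes at 20 weeks and 23777 genes at 28 weeks, and all 10 are listed at both ages. The list was drawn up to read the endothelial content of libraries prepared from podocytes, the epithelial cells on the outer side of the same capillaries. RNA sequencing libraries came from primary podocytes of diabetic mice with a podocyte-specific knockout of Nsd2, a histone H3 lysine 36 methyltransferase, and from floxed controls. The 4 groups of 3 libraries were knockout at 20 weeks, control at 20 weeks, knockout at 28 weeks and control at 28 weeks. Knockout mice had the genotype Cre+/Nsd2fl/fl and control mice Cre-/Nsd2fl/fl, so both carried the floxed alleles, and all had been made diabetic with HFD/STZ (high-fat diet and streptozotocin). The labels used here name no promoter for Cre, and no group without diabetes was analysed here. Nothing in the labels ties the 3 libraries of a group to different animals, so the p-values measure a spread between libraries that may be technical.

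Glomerular endothelial cells are thin and perforated by open fenestrae, and they face podocytes across a shared basement membrane. Podocytes secrete the growth factor VEGF-A, which acts on Kdr (VEGF receptor 2) of the endothelial cell, while angiopoietins act on Tek (the receptor Tie2). Several of the 10 genes have sources outside the endothelium: Pecam1 is also made by platelets and leukocytes, Vwf by megakaryocytes, and Eng, a co-receptor for TGF-beta family ligands, by stromal cells and macrophages.

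Of the 10 genes, 6 had a promoter window in the RefSeq table of build GRCm38.p6. The windows of the members with the highest length-corrected levels, Emcn and Eng, and of the receptors Tek and Kdr, which were among the lowest, are shown so that the genes described below can be seen beside the sequence at their start. Each line gives the 250 bases before the start, 5′ to 3′ on the strand of the gene. Capitals mark AGGAAG, or CTTCCT where it lies on the other strand, the core of a motif bound by ETS factors, a family known for roles in endothelial genes.
Emcn (chr3:137340828-137341077, plus strand): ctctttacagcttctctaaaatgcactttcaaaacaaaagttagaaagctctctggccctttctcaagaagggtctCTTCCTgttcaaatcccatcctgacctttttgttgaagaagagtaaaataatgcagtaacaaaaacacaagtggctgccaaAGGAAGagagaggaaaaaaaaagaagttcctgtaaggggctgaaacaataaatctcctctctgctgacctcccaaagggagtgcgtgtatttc
Eng (chr2:32646345-32646594, plus strand): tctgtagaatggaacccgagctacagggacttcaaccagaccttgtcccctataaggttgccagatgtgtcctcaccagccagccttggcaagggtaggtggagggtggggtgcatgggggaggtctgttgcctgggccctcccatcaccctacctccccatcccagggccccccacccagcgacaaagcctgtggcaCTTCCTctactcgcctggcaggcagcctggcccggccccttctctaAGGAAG
Tek (chr4:94739039-94739288, plus strand): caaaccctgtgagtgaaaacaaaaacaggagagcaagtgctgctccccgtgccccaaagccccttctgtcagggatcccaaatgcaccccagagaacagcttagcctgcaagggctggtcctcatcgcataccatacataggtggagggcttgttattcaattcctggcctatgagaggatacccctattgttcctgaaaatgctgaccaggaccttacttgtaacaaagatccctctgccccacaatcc
Kdr (chr5:75978456-75978705, minus strand): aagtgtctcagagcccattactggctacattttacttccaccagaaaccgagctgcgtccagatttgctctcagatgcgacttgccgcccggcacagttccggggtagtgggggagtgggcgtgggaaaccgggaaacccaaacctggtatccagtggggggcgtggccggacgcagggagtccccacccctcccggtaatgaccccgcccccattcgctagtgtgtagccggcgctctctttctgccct

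The motif was searched on both strands, without another motif to overlap it, and occurred in the windows of 3 of the 6 genes: Emcn, Eng and Flt1. It occurred in 29.5% of the 32841 windows of the table. The windows of Tek, Kdr and Ehd3 held no match for these letters, and other forms of the motif were not searched. Flt1, whose window is not shown, had matches although it was among the members with the lowest length-corrected levels. Ehd3, which was higher than Flt1, had none. Its window (chr17:73804591-73804840) lies inside the gene as annotated in GENCODE M21, which starts at 73804134, and all 250 bases lie in exons there. A match is a description of the sequence and not a binding site.

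Total counts per library ran from 31405349 to 38989180. Nsd2, the targeted gene, had 51.7, 34.1 and 45.0 counts-per-million (CPM, on library sizes scaled by TMM) in knockout libraries, against 94.2, 66.6 and 79.0 CPM in control libraries at 20 weeks. At 28 weeks it had 35.2, 35.2 and 42.9 CPM in knockout libraries, against 87.2, 77.6 and 80.1 CPM in control libraries, so no knockout library reached a control at either age. The libraries also held transcripts of other cells: the podocyte marker Podxl, the smooth muscle genes Tagln and Acta2, the keratins Krt8 and Krt18, and the macrophage gene Lyz2. Control libraries 2 and 3 at 28 weeks were far more alike than any other pair within a group. Their counts differed with a mean chi-square of 4.56 per gene, where sampling noise alone gives 1, against 74.1 to 223 in the other 11 pairs, so they were kept as separate libraries and also tested as 1 summed library. The SDs (n = 3) and ranges given below for controls at 28 weeks may therefore understate the spread between libraries.

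All 10 genes had reads in every library, from 13 reads for Vwf in knockout library 3 at 20 weeks to 3025 reads for Eng in control library 1 at 28 weeks. The 13 reads have an exact Poisson 95% interval of 6.92 to 22.2 reads, which covers counting error only. Levels of different genes are compared here in the authors' FPKM, which corrects for gene length. Emcn, which encodes the sialomucin endomucin of the capillary surface, had the highest mean over the 12 libraries with 18.2 FPKM (range 8.91 to 31.4). Eng followed with 13.6 FPKM (4.68 to 23.5), and Emcn was above Eng in 10 of 12 libraries. Pecam1 and Cdh5, the adhesion molecules CD31 and VE-cadherin of endothelial junctions, came next with means of 4.90 and 4.44 FPKM. These neighbours were not separated by their spread, since Pecam1 was above Cdh5 in 8 of 12 libraries. Ehd3, an endocytic trafficking protein that in the kidney marks glomerular endothelium, had 2.64 FPKM and was above Plvap in 9 of 12 libraries.

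Plvap, which builds the diaphragms that close fenestrae and is sparse in mature glomerular capillaries, averaged 1.27 FPKM and was below 1 FPKM in 5 of 12 libraries. The receptors Tek, Kdr and Flt1 (VEGF receptor 1) averaged 0.429, 0.331 and 0.305 FPKM. Each of these receptors stayed below 1 FPKM in all 12 libraries, and Kdr was above Flt1 in 6 of 12, so their order was not resolved. Vwf, the von Willebrand factor stored in endothelial granules, was the lowest with 0.107 FPKM (0.0408 to 0.215), below Flt1 in all 12 libraries. The order of neighbouring genes depends on the gene length used: the deposited Emcn values imply 1476 bases, while the exons of Emcn in GENCODE M21 cover 5409 bases. In the same libraries the podocyte gene Podxl had 27.0 to 131 FPKM and the smooth muscle gene Tagln 835 to 4920 FPKM.

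**Figure D1:**
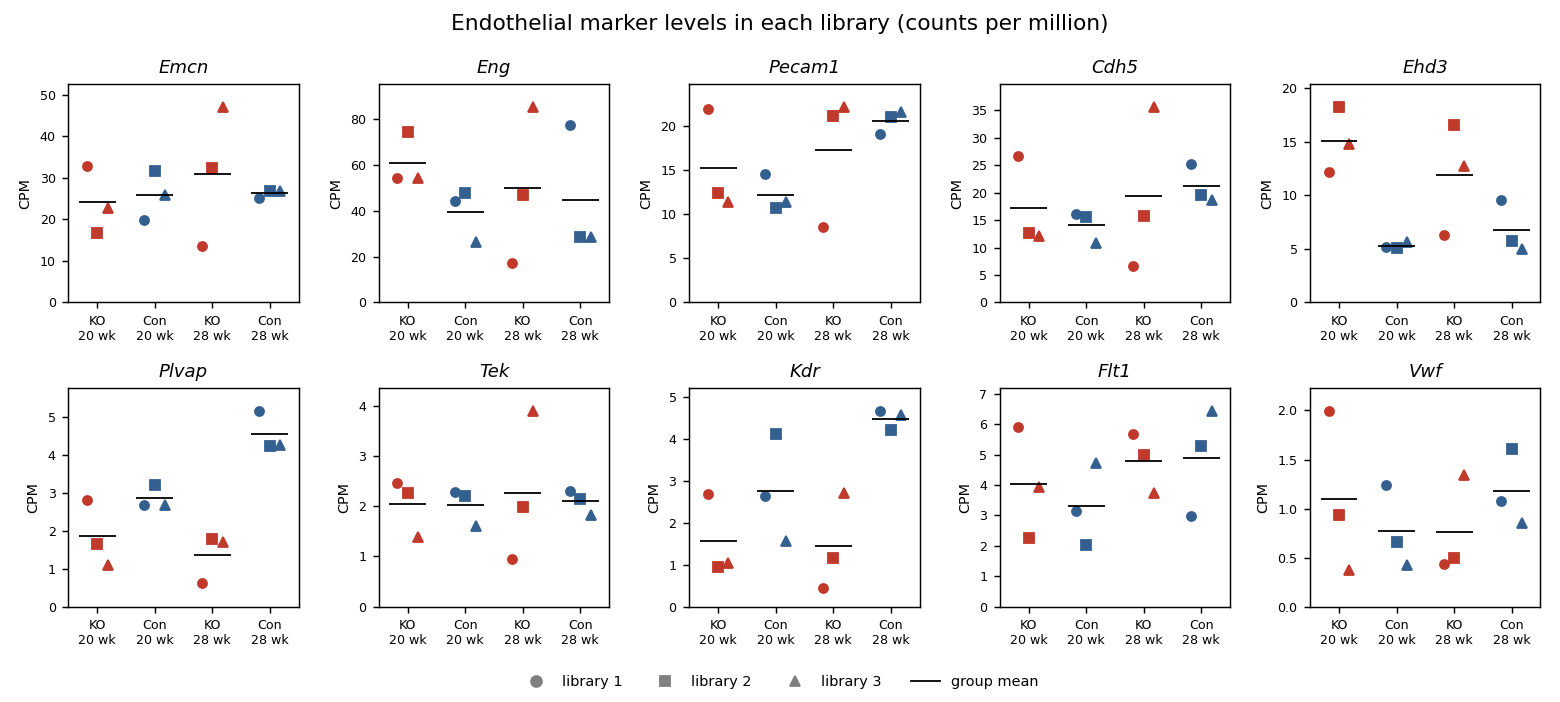
Level of each of the 10 endothelial markers in each of the 12 libraries, in counts-per-million on TMM-scaled library sizes, with knockout (KO, red) left of control (Con, blue) at each age. Symbols give the library number and black lines the group mean; the 3 Ehd3 points of knockout at 20 weeks (12.2 to 18.3 CPM) lie above all 3 controls (5.07 to 5.67 CPM), and the 3 Plvap points of knockout at 28 weeks (0.63 to 1.78 CPM) lie below all 3 controls (4.24 to 5.14 CPM).

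At 20 weeks, Ehd3 was the only member whose difference between genotypes passed the test. It had 12.2, 18.3 and 14.8 CPM in knockout libraries, against 5.21, 5.07 and 5.67 CPM in control libraries. All 3 knockout libraries lay above all 3 controls, and the means were 15.1 ± 3.02 CPM in knockouts and 5.32 ± 0.311 CPM in controls (SD, n = 3 each). The log2 fold change was 1.50 (SE 0.23; adjusted p = 0.00814, edgeR quasi-likelihood test with Benjamini-Hochberg adjustment over the 14853 genes tested). With any 1 library left out, the adjusted p of Ehd3 lay between 0.00347 and 0.0425. The gene lies at chr17:73804134-73832094 on the plus strand of GRCm38. A change in the number of cells of a type and a change in RNA per cell cannot be told apart in such bulk libraries.

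The 1 gene higher among 10 compares with 4.79% of all genes tested that were called higher at 20 weeks, and 0 genes lower with 5.13% called lower, together 9.92%. Eng was the other member without overlap. It had 54.3, 74.5 and 54.3 CPM in knockout libraries, against 44.3, 47.7 and 26.6 CPM in control libraries. Its log2 fold change of 0.63 (SE 0.25) did not pass after adjustment (adjusted p = 0.171, edgeR; unadjusted p = 0.0381). Over all genes tested, 15.5% were higher in knockouts without overlap. Ehd3 and Eng were also the 2 members with an unadjusted p below 0.05, against 25% of all genes tested.

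The junction genes overlapped between genotypes at 20 weeks. Cdh5 had 26.6, 12.6 and 12.2 CPM in knockout libraries, against 16.1, 15.5 and 10.7 CPM in control libraries (log2 fold change 0.28, SE 0.34, adjusted p = 0.686, edgeR). Pecam1 had 21.9, 12.4 and 11.4 CPM in knockout libraries, against 14.5, 10.7 and 11.4 CPM in control libraries (log2 fold change 0.32, SE 0.29, adjusted p = 0.573, edgeR). For both genes knockout library 1 stood above the other 5 libraries, and without it the log2 fold changes were -0.18 for Cdh5 and -0.03 for Pecam1. Emcn had 32.9, 16.7 and 22.8 CPM in knockout libraries, against 19.8, 31.7 and 25.9 CPM in control libraries (log2 fold change -0.10, SE 0.28, adjusted p = 0.875, edgeR).

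The VEGF receptors and Tek also overlapped at 20 weeks. Kdr had 2.68, 0.94 and 1.05 CPM in knockout libraries, against 2.64, 4.11 and 1.55 CPM in control libraries. Its log2 fold change was -0.83 (SE 0.53, adjusted p = 0.394, edgeR), and knockout libraries 2 and 3 lay below every control while knockout library 1 did not. Flt1, which binds VEGF-A without strong signalling, had 5.92, 2.27 and 3.92 CPM in knockout libraries, against 3.14, 2.04 and 4.72 CPM in control libraries (log2 fold change 0.29, SE 0.44). Tek averaged 2.04 ± 0.570 CPM in knockout libraries and 2.03 ± 0.369 CPM in control libraries (SD, n = 3 each), with a log2 fold change of 0.01 (SE 0.35). Neither gene passed, and the genotypes overlapped for both. Plvap had 2.82, 1.65 and 1.11 CPM in knockout libraries, against 2.67, 3.20 and 2.69 CPM in control libraries (log2 fold change -0.62, SE 0.39, adjusted p = 0.392, edgeR). Vwf had 1.99, 0.94 and 0.37 CPM in knockout libraries, against 1.24, 0.66 and 0.42 CPM in control libraries, so a 5.39-fold range within the knockouts covered all controls. The 10 log2 fold changes at 20 weeks were positive for 7 genes and negative for 3, with a median of 0.28 beside 0.01 over all genes tested.

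At 28 weeks, Plvap was the only member called, and it was lower in knockouts. It had 0.63, 1.78 and 1.71 CPM in knockout libraries, against 5.14, 4.24 and 4.27 CPM in control libraries. No knockout library reached a control, and the means were 1.37 ± 0.648 CPM in knockouts and 4.55 ± 0.514 CPM in controls (SD, n = 3 each). These values rest on 20, 54 and 60 reads in knockout libraries, against 201, 174 and 170 reads in control libraries. The log2 fold change was -1.73 (SE 0.42; adjusted p = 0.0314, edgeR over 15011 genes). The 1 gene lower among 10 compares with 11.9% of all genes tested that were called lower at 28 weeks, and 0 genes higher with 9.33% called higher, together 21.2%.

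The call of Plvap rests on all libraries but 1. It was kept without knockout library 1 (log2 fold change -1.39, adjusted p = 0.0140, edgeR). It was lost without control library 1, 2 or 3 (adjusted p = 0.0843, 0.0883 and 0.0905), without knockout library 2 (adjusted p = 0.0613) and without knockout library 3 (adjusted p = 0.0513), with log2 fold changes from -1.63 to -1.96. With the closely alike control libraries 2 and 3 summed into 1, the log2 fold change was -1.78 and the adjusted p was 0.0878. Plvap lies at chr8:71497765-71511752 on the minus strand of GRCm38.

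Kdr had the next lowest fold change at 28 weeks. It had 0.44, 1.15 and 2.71 CPM in knockout libraries, against 4.66, 4.22 and 4.57 CPM in control libraries. The controls, with the closely alike libraries 2 and 3 among them, lay within a 1.10-fold range. The knockouts lay within a 6.18-fold range, without overlap with the controls. The log2 fold change of -1.64 (SE 0.60) did not pass after adjustment (adjusted p = 0.105, edgeR; unadjusted p = 0.0316). DESeq2 called Kdr lower (adjusted p = 0.0321), and so did edgeR without knockout library 3 (log2 fold change -2.54, adjusted p = 0.0240). Plvap and Kdr were the 2 members lower without overlap, beside 22.8% of all genes tested, and 0 were higher without overlap, beside 19.3%. They were also the 2 members with an unadjusted p below 0.05, against 34.8% of all genes tested.

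The other members overlapped at 28 weeks, with a wide spread among knockouts. Cdh5 had 6.55, 15.8 and 35.5 CPM in knockout libraries, against 25.1, 19.6 and 18.6 CPM in control libraries (log2 fold change -0.13, SE 0.55, adjusted p = 0.900, edgeR). The knockouts spanned a 5.42-fold range on both sides of the controls. Emcn had 13.6, 32.3 and 47.0 CPM in knockout libraries, against 25.2, 27.0 and 26.9 CPM in control libraries (log2 fold change 0.24, SE 0.41, adjusted p = 0.735, edgeR). Pecam1 had 8.56, 21.1 and 22.1 CPM in knockout libraries, against 19.1, 21.02 and 21.6 CPM in control libraries (log2 fold change -0.25, SE 0.35, adjusted p = 0.662, edgeR). For Pecam1, knockout library 1 alone lay away from the other 5 libraries.

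Ehd3 had 6.33, 16.6 and 12.7 CPM in knockout libraries, against 9.60, 5.76 and 4.97 CPM in control libraries at 28 weeks. Knockout library 1 lay among the controls, and the log2 fold change of 0.81 (SE 0.42) did not pass (adjusted p = 0.225, edgeR). Without knockout library 1 it was 1.10 with an adjusted p of 0.0524. Eng had 17.3, 47.0 and 85.3 CPM in knockout libraries, against 77.4, 28.7 and 28.7 CPM in control libraries, with a log2 fold change of 0.15 (SE 0.64). Control library 1 held 2.70 times the level of the lowest control for Eng, and a 4.92-fold range separated the knockouts. Tek averaged 2.27 ± 1.49 CPM in knockout libraries and 2.09 ± 0.240 CPM in control libraries, and Flt1 averaged 4.80 ± 0.979 CPM in knockout libraries and 4.89 ± 1.76 CPM in control libraries (SD, n = 3 each). Vwf averaged 0.759 ± 0.507 CPM in knockout libraries and 1.18 ± 0.389 CPM in control libraries. None of these 3 genes passed the test, and their groups overlapped. The 10 log2 fold changes at 28 weeks were positive for 4 genes and negative for 6, with a median of -0.08 beside 0.07 over all genes tested.

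**Figure D2:**
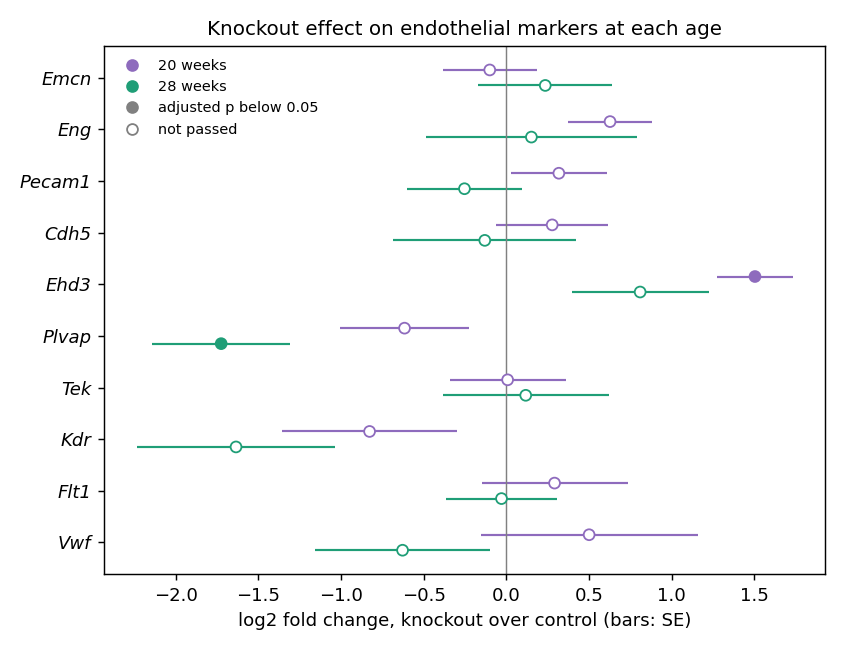
Log2 fold change of each member, knockout over control, at 20 weeks (purple, upper point) and 28 weeks (green, lower point); bars are standard errors from edgeR, and filled points have an adjusted p below 0.05. The filled points are Ehd3 at 20 weeks (1.50) and Plvap at 28 weeks (-1.73); Plvap and Kdr lie left of 0 at both ages and Ehd3 lies right of 0 at both ages.

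The knockout libraries of an age differed among themselves, and most members shared the order. Knockout library 1 at 28 weeks was the lowest of its group for 9 of 10 members, and Flt1 was the exception, for which it was the highest. Knockout library 3 at 28 weeks was the highest for 7 members and the lowest for Flt1. At 20 weeks knockout library 1 was the highest for 8 members, and Ehd3 and Eng were the exceptions, for which it was the lowest. The median coefficient of variation over the 10 genes was 59.9% in knockouts at 28 weeks and 14.1% in controls at 28 weeks. It was 41.7% in knockouts at 20 weeks and 21.9% in controls at 20 weeks. The 14.1% may understate the spread, since control libraries 2 and 3 at 28 weeks were closely alike. The 10 genes of a library come from the same RNA and depth, so they are not independent views of this spread.

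**Figure D3:**
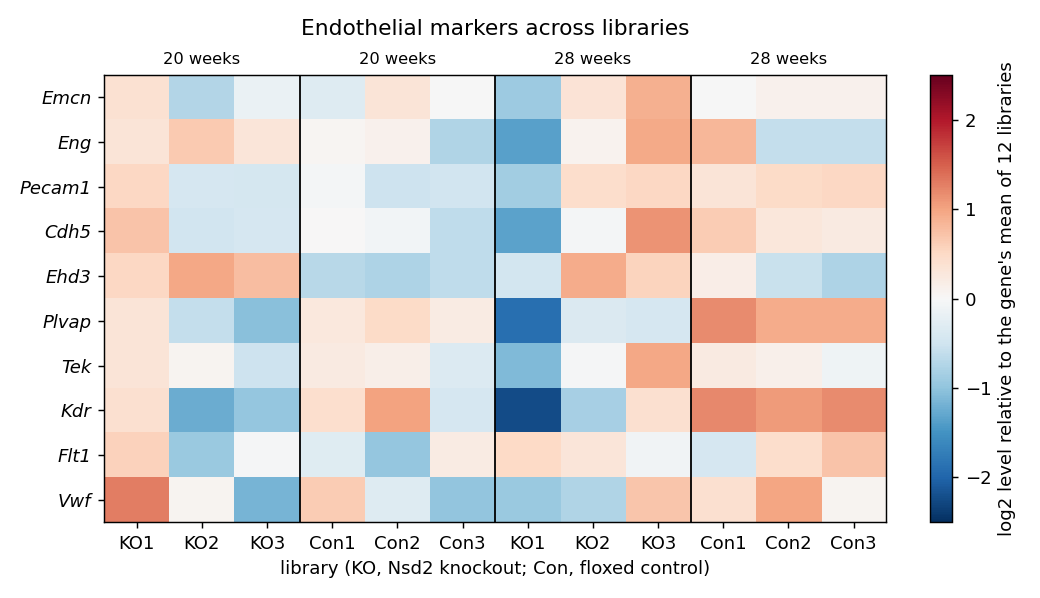
Log2 level of each member in each library relative to its own mean over the 12 libraries (CPM from 1 TMM scaling of all 12), red above and blue below the mean, with knockout (KO) and control (Con) libraries in blocks by age. KO1 at 28 weeks is blue for 9 of 10 genes, all but Flt1, and the 3 controls at 28 weeks are red for Kdr and Plvap.

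The summed level of the 10 genes was used as 1 reading of endothelial content per library. The reading depends on the list, and the wider endothelial list below gave a different one at 28 weeks. The sums were 163.8, 142.5 and 123.2 CPM in knockout libraries at 20 weeks, against 111.9, 123.0 and 91.3 CPM in control libraries. The knockout mean was 143 ± 20.3 CPM and the control mean 109 ± 16.1 CPM (SD, n = 3 each), a log2 ratio of 0.40 beside a pooled SD of 0.21 on the log2 scale. The lowest knockout and the highest control lay side by side, and on unscaled column totals they overlapped, at 121.5 CPM in knockout library 3 and 125.1 CPM in control library 2. Without Eng the log2 ratio was 0.25, and on summed FPKM it was 0.19.

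At 28 weeks the sums were 60.5, 143.1 and 216.2 CPM in knockout libraries, against 172.6, 119.6 and 118.6 CPM in control libraries. The lowest and the highest sum of all 12 libraries were both knockouts at 28 weeks, and the controls lay between them. The knockout mean was 140.0 ± 77.9 CPM and the control mean 137 ± 30.9 CPM (SD, n = 3 each), a log2 ratio of 0.03 beside a pooled SD of 0.70. The log2 ratio was -0.43 without knockout library 3 and 0.39 without knockout library 1. Emcn and Eng together made up 46.6% to 64.6% of the sum in each library. No test was run on the sums, since the members were chosen as a list.

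Set against Cdh5 as a reference for endothelial RNA in the same library, Kdr and Plvap stood apart from the other members. This ratio was formed after the values had been seen and is given as a description without a test. The separation depends on the reference, since Kdr per read of Emcn overlapped between genotypes at 20 weeks. Knockout library 1 had 97 reads of Kdr and 1188 of Emcn, and control library 3 had 59 and 983. Kdr had 0.101, 0.0743 and 0.0864 reads per Cdh5 read in knockout libraries, against 0.164, 0.264 and 0.145 in control libraries at 20 weeks. At 28 weeks Kdr had 0.0670, 0.0732 and 0.0764 reads per Cdh5 read in knockout libraries, against 0.185, 0.215 and 0.245 in control libraries. The knockouts lay below every control at both ages, although the Kdr level itself spanned a 6.18-fold range among knockouts at 28 weeks.

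Plvap had 0.106, 0.131 and 0.0911 reads per Cdh5 read in knockout libraries, against 0.166, 0.206 and 0.250 in control libraries at 20 weeks. At 28 weeks it had 0.0957, 0.113 and 0.0482 in knockout libraries, against 0.205, 0.216 and 0.229 in control libraries. Again no knockout reached a control. These were 2 of the 9 ratios, and the other 7 overlapped between genotypes at both ages. Over all genes tested, the ratio to Cdh5 was lower in every knockout than in every control for 13.4% at 20 weeks, 3.92% at 28 weeks and 3.23% at both ages. Reads of Kdr and Plvap are few in the knockouts, from 14 reads of Kdr and 20 of Plvap in knockout library 1 at 28 weeks, and the exact Poisson 95% interval of those 14 reads is 7.65 to 23.5.

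**Figure D4:**
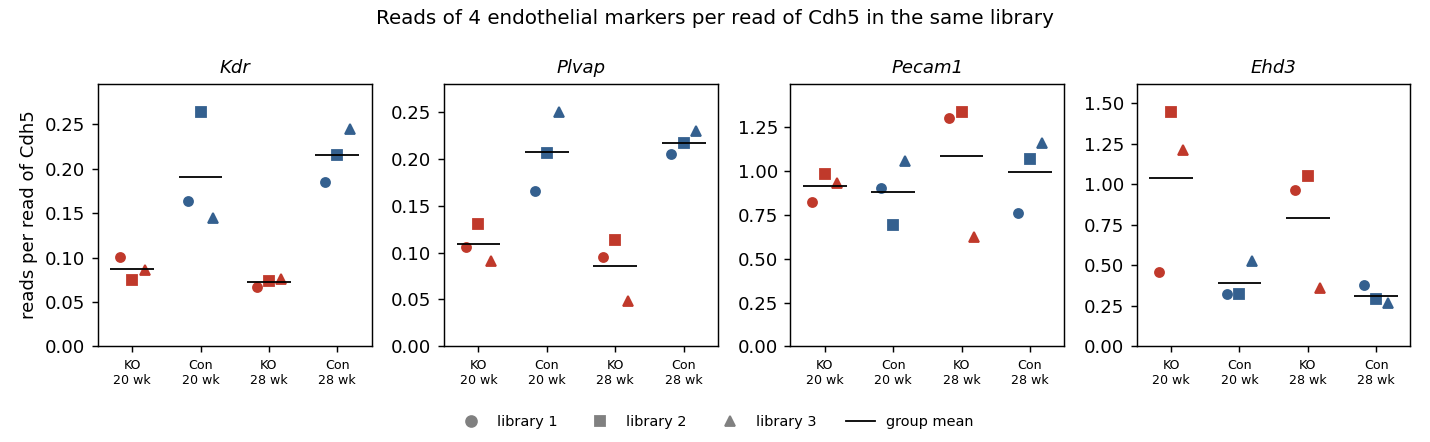
Reads of Kdr, Plvap, Pecam1 and Ehd3 per read of Cdh5 in each library, with knockout (KO, red) left of control (Con, blue) at each age, symbols for the library number and black lines for group means. For Kdr and Plvap every knockout lies below every control at both ages (0.0482 to 0.131 against 0.145 to 0.264 over both genes and ages), while Pecam1 and Ehd3 overlap at both ages.

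The difference of the knockout effect between 28 and 20 weeks was tested in 1 edgeR model of all 12 libraries, over 15662 genes. No member was called, and 0% of all genes tested were called, with 0 members at an unadjusted p below 0.05 beside 9.12% of all genes. DESeq2 called 34 genes and no member. The largest differences were those of Vwf, with a log2 difference of -1.12 (SE 0.93, adjusted p = 0.678, edgeR), and Plvap, with -1.11 (SE 0.58, adjusted p = 0.570, edgeR). Ehd3 had -0.68 (SE 0.47, adjusted p = 0.633, edgeR). The call of Plvap at 28 weeks and that of Ehd3 at 20 weeks were therefore not shown to belong to 1 age.

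Age itself coincides with the deposited table, so the effects of age and of any difference in handling between the tables cannot be told apart. Between 28 and 20 weeks no member was called within controls or within knockouts by edgeR or DESeq2, 0% of all genes tested were called by edgeR in either contrast, and no member had an unadjusted p below 0.05, beside 2.98% of all genes in controls and 11.2% in knockouts. In controls, all 10 log2 fold changes of 28 over 20 weeks were positive, with a median of 0.59 beside -0.01 over all genes tested. This was not particular to the 10 members. Of the lists described below, 12 of 12 podocyte genes were positive (median 0.47), 24 of 29 other endothelial genes (median 0.34) and 8 of 10 epithelial genes (median 0.63). Leukocyte genes were negative for 9 of 9 and platelet genes for 4 of 4. Pecam1, Cdh5, Kdr and Plvap were higher in every control at 28 weeks than in every control at 20 weeks, 4 of 10 beside 7.81% of all genes tested, and 0 were lower, beside 5.54%. So were 4 of 12 podocyte genes and 6 of 29 other endothelial genes. The closely alike control libraries 2 and 3 at 28 weeks count as separate libraries here. Plvap averaged 4.63 ± 0.489 CPM at 28 weeks and 2.87 ± 0.295 CPM at 20 weeks in controls (SD, n = 3 each; CPM from 1 scaling of all 12 libraries). Pecam1 averaged 20.9 ± 1.45 CPM at 28 weeks and 12.3 ± 2.33 CPM at 20 weeks in controls, with an unadjusted p of 0.0538 from edgeR and an adjusted p near 1. In knockouts, 5 log2 fold changes were positive and 5 negative, with a median of 0.04, and no member was without overlap, beside 8.24% of all genes tested higher and 6.77% lower.

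A wider list of 30 other endothelial genes was read beside the 10 members. At 20 weeks 29 were measured and tested and 0 were called by edgeR or DESeq2, with 2 at an unadjusted p below 0.05 and a median log2 fold change of 0.07. Every knockout lay above every control for 2 of them and below for 1, against 15.5% and 16.7% of all genes tested. Named after their values were seen, those higher were Ecscr (log2 fold change 0.62, adjusted p = 0.148, edgeR) and Nostrin (0.32, adjusted p = 0.664). The lower one was Ptprb (-1.07, adjusted p = 0.269). Its most abundant genes were Plat (tissue plasminogen activator) with a mean of 86.2 FPKM over the 12 libraries, Nrp1 (a VEGF co-receptor) with 29.7 FPKM and Egfl7 (a secreted vascular matrix protein) with 8.41 FPKM. Plat and Nrp1 are also made by mesenchymal cells. At 20 weeks the log2 fold changes were 0.30 for Plat (adjusted p = 0.669, edgeR) and 0.38 for Nrp1 (adjusted p = 0.564, edgeR).

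At 28 weeks 29 of the 30 genes were tested, 3 were called higher and 1 lower, with a median log2 fold change of 0.05. Over all genes tested at this age 9.33% were called higher and 11.9% lower. Ecscr, an endothelial surface protein, averaged 18.9 ± 4.52 CPM in knockouts and 7.80 ± 1.34 CPM in controls (SD, n = 3 each; log2 fold change 1.28, adjusted p = 0.0143, edgeR). Plat averaged 302.7 ± 36.5 CPM in knockouts and 175.5 ± 17.3 CPM in controls (log2 fold change 0.79, adjusted p = 0.0120, edgeR). Nrp1 averaged 329 ± 36.0 CPM in knockouts and 233 ± 19.0 CPM in controls (log2 fold change 0.50, adjusted p = 0.0424, edgeR). For each of these 3 genes every knockout lay above every control. Cyyr1, the gene called lower and named after its values were seen, had 0, 5 and 3 reads in knockout libraries, against 22, 30 and 22 reads in control libraries. Every knockout lay below every control for Cyyr1 and for 3 genes that were not called, so the groups did not overlap for 3 genes in the higher direction and 4 in the lower, against 19.3% and 22.8% of all genes tested. These 3, also named after their values were seen, are Cldn5 (a tight junction claudin), Ptprb (the phosphatase VE-PTP, which acts on Tek) and Mmrn2 (an endothelial matrix protein). Cldn5 averaged 1.54 ± 1.44 CPM in knockouts and 4.52 ± 1.06 CPM in controls (log2 fold change -1.55, adjusted p = 0.248, edgeR). Ptprb averaged 1.95 ± 1.23 CPM in knockouts and 4.47 ± 0.380 CPM in controls (log2 fold change -1.19, adjusted p = 0.190, edgeR), and Mmrn2 averaged 1.55 ± 0.960 CPM in knockouts and 3.42 ± 0.152 CPM in controls (log2 fold change -1.14, adjusted p = 0.150, edgeR). None of the 4 called genes was called with control libraries 2 and 3 summed (adjusted p from 0.0532 to 0.160) or without control library 2 or 3 (adjusted p from 0.0502 to 0.169). The list had 1 call without knockout library 2 and 1 without knockout library 3, 2 without control library 1, and 5 without knockout library 1. Egfl7 averaged 18.3 ± 3.56 CPM in knockouts and 15.2 ± 1.74 CPM in controls and did not pass (adjusted p = 0.363, edgeR).

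Of a lymphatic endothelial list of 6 genes, Flt4 and Prox1 were tested, and Flt4 made up 70.1% to 95.5% of the list's summed FPKM in each library. Flt4, VEGF receptor 3 of lymphatic and some fenestrated endothelium, had 2.26, 3.00 and 6.46 CPM in knockout libraries, against 85.2, 54.2 and 55.4 CPM in control libraries at 28 weeks. Every knockout lay far below every control, and Flt4 was called lower (log2 fold change -4.05, SE 0.45, adjusted p = 0.00404, edgeR), as it was with any 1 library left out (adjusted p from 0.00302 to 0.0232). At 20 weeks Flt4 had 15.6, 2.95 and 3.30 CPM in knockout libraries, against 40.1, 29.7 and 29.4 CPM in control libraries, and missed the threshold (log2 fold change -2.18, adjusted p = 0.0620, edgeR). Without knockout library 1 it passed (log2 fold change -3.40, adjusted p = 0.000400). Prox1, the transcription factor of lymphatic identity, had a log2 fold change of -1.86 at 28 weeks (adjusted p = 0.0197, edgeR) and -1.22 at 20 weeks (adjusted p = 0.114, edgeR), and its call at 28 weeks was lost without control library 1, 2 or 3 (adjusted p from 0.0561 to 0.0582). The other lymphatic markers were at or near 0: Lyve1 was listed at 0 in 4 libraries, Reln in 7 and Mmrn1 in 8.

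Markers of other cells were compared between the same groups. Calls of these lists stand beside 4.79% of all genes tested called higher and 5.13% called lower at 20 weeks. At 28 weeks the shares were 9.33% higher and 11.9% lower. Mural and mesangial genes summed to 4331 to 6297 FPKM in knockouts and 2301 to 2359 FPKM in controls at 20 weeks, and 9 of 11 tested were called higher. At 28 weeks they summed to 3420 to 7374 FPKM in knockouts and 1388 to 1666 FPKM in controls, and 4 of 13 were called higher. Abcc9 and Kcnj8 were each at 0 in 1 library. Fibroblast genes, with Col1a2 and Col1a1 the most abundant, summed to 452 to 645 FPKM in knockouts and 77.8 to 268 FPKM in controls at 20 weeks, with 2 of 4 tested called higher. At 28 weeks they summed to 197 to 448 FPKM in knockouts and 87.0 to 229 FPKM in controls, with 1 of 4 called higher and 1 lower; Lum was at 0 in 9 libraries and Dpt in 2.

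Tubule and parietal epithelial genes summed to 144 to 972 FPKM in knockouts and 1510 to 3311 FPKM in controls at 20 weeks, and 3 of 9 tested were called lower. At 28 weeks they summed to 3747, 58.3 and 333 FPKM in knockout libraries 1, 2 and 3 and to 1807 to 3655 FPKM in controls. Of 10 tested, 1 was called lower, beside 11.9% of all genes tested. Knockout library 1 at 28 weeks thus had the highest epithelial sum of all 12 libraries and the lowest sum of the 10 endothelial members. It also had the lowest podocyte sum of all 12 libraries, 116 FPKM. Among knockouts at 28 weeks it had the lowest mural and mesangial sum, 3420 FPKM, and the lowest fibroblast sum, 197 FPKM. In knockout library 1 the sum of the wider endothelial list, 162 FPKM, lay above the controls at 28 weeks (144 to 150 FPKM). Plat and Nrp1, which mesenchymal cells also make, led that list, with means of 86.2 and 29.7 FPKM over the 12 libraries. Aqp2 was at 0 in 5 libraries and Slc34a1 and Umod in 3 each. Podocyte genes summed to 273 to 363 FPKM in knockouts and 124 to 220 FPKM in controls at 20 weeks, with 6 of 12 called higher and 1 lower. At 28 weeks they summed to 116 to 314 FPKM in knockouts and 214 to 310 FPKM in controls, with 3 of 12 called lower. With the library number as a block, 0 podocyte, 0 fibroblast and 0 epithelial genes were called at 28 weeks.

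Leukocyte genes, with Lyz2 and C1qb the most abundant, summed to 226 to 388 FPKM in knockouts and 72.8 to 326 FPKM in controls at 20 weeks. Lyz2 led these sums with a mean of 256 FPKM over the 12 libraries, beside 14.4 FPKM for C1qb. Of 9 tested, 0 were called by edgeR and 2 by DESeq2, with 3 at an unadjusted p below 0.05, beside 25% of all genes tested. The log2 fold changes were negative for 6 genes and positive for 3, with a median of -0.76. Groups did not overlap for 1 gene higher and 1 lower, beside 15.5% and 16.7% of all genes tested. At 28 weeks leukocyte genes summed to 545 to 767 FPKM in knockouts and 66.5 to 84.4 FPKM in controls. Of 9 tested, 3 were called higher, and the log2 fold changes were positive for 8 and negative for 1.

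Platelet genes, led by Itgb3, an integrin that many other cells make, summed to 21.5 to 30.3 FPKM in knockouts and 16.4 to 31.1 FPKM in controls at 20 weeks. Of 4 tested, 0 were called by edgeR or DESeq2 and 0 had an unadjusted p below 0.05. Their sums at 28 weeks were 18.6 to 26.6 FPKM in knockouts and 13.4 to 16.0 FPKM in controls, and 1 of 4 was called higher. Pf4, a chemokine of platelet granules, had 2.04, 3.53 and 3.06 CPM in knockout libraries, against 0.819, 0.927 and 0.903 CPM in control libraries at 28 weeks (log2 fold change 1.70, SE 0.30, adjusted p = 0.0117, edgeR). Every knockout lay above every control for Pf4, Itgb3 and Itga2b (a platelet integrin subunit). Over all genes tested, 19.3% were higher in knockouts without overlap. Itgb3 averaged 106.8 ± 16.5 CPM in knockouts and 71.9 ± 9.68 CPM in controls and missed the threshold (log2 fold change 0.57, adjusted p = 0.0502, edgeR), as did Itga2b (log2 fold change 0.78, adjusted p = 0.128, edgeR). The Pf4 call was lost without control library 2 (adjusted p = 0.0556) or 3 (adjusted p = 0.0582). Pecam1 and Vwf, which platelets or megakaryocytes also make, had log2 fold changes of -0.25 and -0.63 at 28 weeks. Gp9, Gp1ba and Treml1 were at 0 in 5, 4 and 8 libraries. Red blood cell genes summed to at most 0.272 FPKM. The summed level of the 10 endothelial genes was 20.3 to 75.9 FPKM, and the part of these other cells in the values of the 10 genes was not tested.

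**Figure D5:**
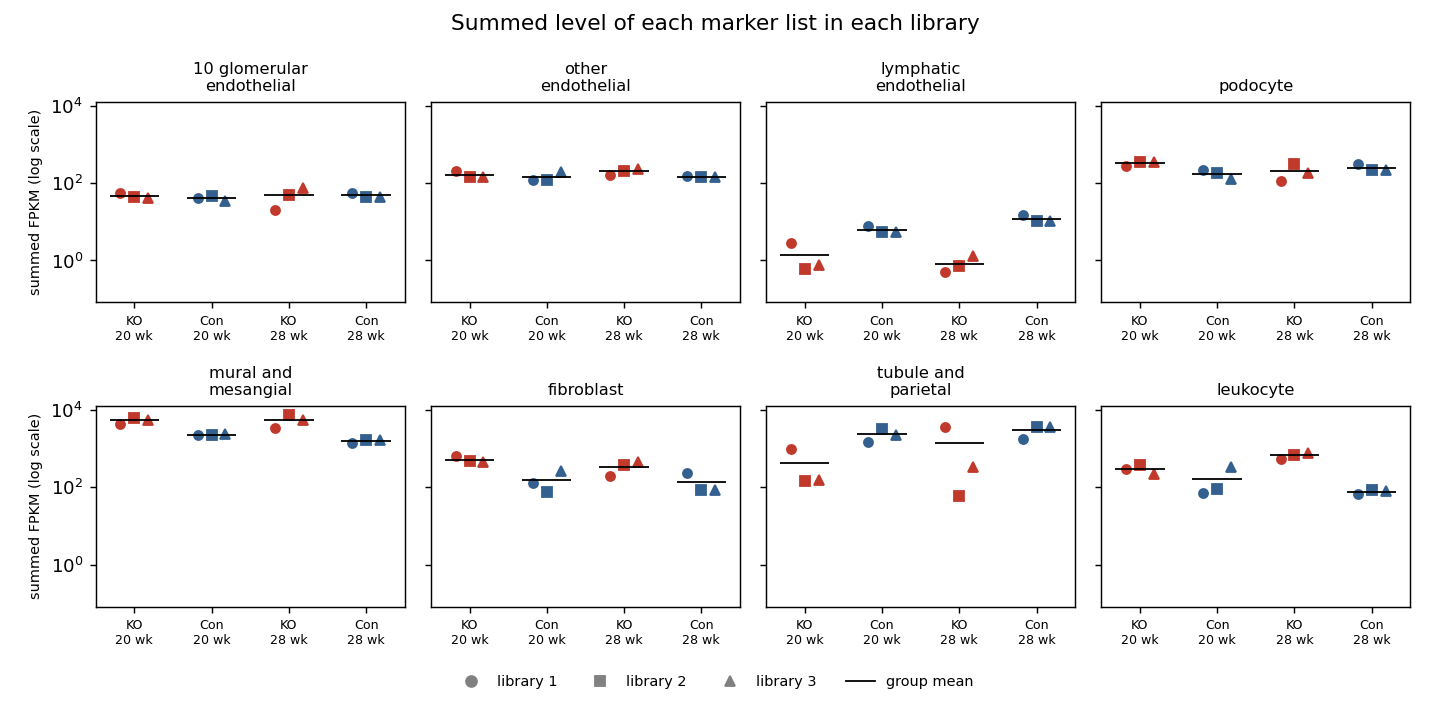
Summed FPKM of each marker list in each library on a log axis shared by all panels, with knockout (KO, red) left of control (Con, blue) at each age, symbols for the library number and black lines for group means. The 10 glomerular endothelial genes sum to 20.3 to 75.9 FPKM with overlap between genotypes at both ages, while the lymphatic sums are 0.498 to 2.81 FPKM in knockouts and 5.50 to 15.3 FPKM in controls. Flt4 alone makes up 70.1% to 95.5% of each lymphatic sum.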

How the data were processed

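RNA sequencing measured gene expression in 12 libraries of primary podocytes, 3 for each genotype and age. The authors deposited raw read counts per gene symbol and, from the same counts, FPKM values, in 1 table of each kind per age, per the file headers. Each gene had a single implied length in all libraries of an age, within a relative tolerance of 1e-06. The genome build was GRCm38 (mm10), per the submitters' processing notes. The aligner, the counter and its strand setting, and the annotation were not given in the sources used here. Without a stated strand setting, reads from Eng and Fpgs, which share 61 exon bases on opposite strands in GENCODE M21, cannot be told apart there. Libraries were made with a SMARTER mRNA-seq kit from total RNA, and the labels give a single batch.

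Counts were fitted per age with edgeR 4.0.16 in R 4.3.3 (TMM, filterByExpr on the group, quasi-likelihood F test, no block), and calls were made below 0.05 after Benjamini-Hochberg adjustment over all genes tested. Standard errors were obtained as |log2 fold change| over the root of F. Contrasts over age used 1 model of the 12 libraries over the 22290 genes in both tables. All 10 members passed the filter in every comparison. Alternatives were RLE size factors, DESeq2 1.42.0, other filters, a replicate block, limma 3.58.1 on log2(FPKM + 0.1) and log2(FPKM + 1), leaving out each library, control libraries 2 and 3 at 28 weeks summed, and the model of 12 libraries. The fitting steps were tested on simulated data with the same spread set for every gene and group. The libraries here differ in spread between groups and pairs, so that test does not measure error rates in these data. All 10 members are named in every genotype comparison. From the wider endothelial list, the named genes are up to 3 called with the smallest p and the 3 with the highest FPKM, and from other lists the 2 with the highest FPKM; a gene that met this rule is not reported here. The members and lists were chosen with earlier results of these data known.

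The labels used here state no pairing of same-numbered libraries. Their deviations from the group means correlated from -0.619 to 0.399, with both signs, and the numbers were not treated as pairs. Depth was 31405349 to 38989180 counts per library, and intervals of counts are exact Poisson 95% intervals that cover counting error only.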

Additional observations from a re-analysis of the deposited data

How the results depend on the processing

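The call of Ehd3 at 20 weeks was kept under every alternative run, and the count of members called at 20 weeks was 1 in each of them. No member was called for the difference of effects or for either contrast over age under any alternative run. At 28 weeks the count of members called was 1, and it was 2 (Plvap and Kdr) with DESeq2, with FPKM + 0.1 in limma and with FPKM + 1 in limma. It was 0 with the replicate block and 0 with control libraries 2 and 3 summed, and 0 to 1 with 1 library left out; the single call without knockout library 3 was that of Kdr. The count of other endothelial markers called at 28 weeks was 4, and it was 2 with no filter, 0 with the replicate block, 0 with control libraries 2 and 3 summed, 2 in the model of 12 libraries and 0 to 5 with 1 library left out. At 20 weeks this count was 0, and 0 to 1 with 1 library left out. With the block, the adjusted p of Plvap at 28 weeks was 0.119 and that of Nsd2 0.0526 (edgeR). The correlation of deviations of same-numbered libraries was -0.0959, 0.399 and -0.132 at 20 weeks and -0.619, -0.165 and -0.551 at 28 weeks. Deviations from a mean of 3 libraries depend on each other, so these values cannot decide whether same-numbered libraries were handled together. The cause of these changes was not tested.

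The log2 ratio of the summed level at 28 weeks was 0.03, -0.041 on unscaled column totals and -0.031 without Eng, all within the pooled SD. Log2 fold changes near 0 turned sign under other settings. Tek at 20 weeks was -0.057 with a filter of 1 CPM, -0.016 with the replicate block, -0.084 with FPKM + 0.1, -0.028 with FPKM + 1 and -0.034 in the model of 12 libraries. Tek at 28 weeks was -0.094 with the block, -0.11 with FPKM + 0.1 and -0.0072 with FPKM + 1. Flt1 at 28 weeks was 0.018 with the block and 0.11 with controls summed, Emcn was -0.019 with FPKM + 0.1 and -0.0087 with FPKM + 1, and Eng was -0.038 with FPKM + 0.1, -0.021 with FPKM + 1 and -0.091 with controls summed. Leaving out 1 library at a time turned the sign of these log2 fold changes, given as their lowest and highest values. For knockout over control at 20 weeks, the ranges were -0.034 to 0.51 for Pecam1, -0.18 to 0.49 for Cdh5, -0.085 to 0.64 for Flt1, -0.14 to 0.24 for Tek, -0.38 to 0.11 for Emcn and -0.24 to 1.00 for Vwf. For knockout over control at 28 weeks, the ranges were -0.52 to 0.056 for Pecam1, -0.96 to 0.28 for Cdh5, -0.29 to 0.21 for Flt1, -0.57 to 0.49 for Tek, -0.25 to 0.58 for Emcn and -0.51 to 0.80 for Eng. For the difference of effects between ages, the ranges were -1.20 to 0.097 for Cdh5, -0.67 to 0.068 for Flt1, -0.52 to 0.47 for Tek, -0.11 to 0.67 for Emcn and -1.09 to 0.17 for Eng. For 28 over 20 weeks in controls, the ranges were -0.096 to 0.15 for Tek, -0.11 to 0.22 for Emcn and -0.43 to 0.43 for Eng. For 28 over 20 weeks in knockouts, the ranges were -0.026 to 0.59 for Pecam1, -0.61 to 0.69 for Cdh5, -0.96 to 0.58 for Kdr, -0.055 to 0.66 for Flt1, -0.46 to 0.52 for Tek, -0.061 to 0.72 for Emcn, -0.89 to 0.11 for Eng, -0.68 to 0.054 for Plvap and -1.22 to 0.29 for Vwf.

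Over all genes the calls at 20 weeks were 1473, 2430 with DESeq2 and 517 to 2023 with 1 library left out. At 28 weeks they were 3183, 332 with the block, 1299 with controls summed and 1266 to 3374 with 1 library left out. The Nsd2 call at 20 weeks (log2 fold change -0.88, adjusted p = 0.0402, edgeR) was lost without knockout library 2 or 3 or any 1 control (adjusted p up to 0.164), with a filter of 1 CPM and with FPKM + 1. With 1 library left out, the calls at 20 weeks ranged from 5 to 9 mural, 2 to 8 podocyte, 1 to 3 fibroblast, 2 to 7 epithelial and 0 to 1 leukocyte markers, and at 28 weeks from 2 to 5, 2 to 5, 1 to 4, 1 to 4 and 2 to 4 in the same order of lists, and from 0 to 2 platelet markers. At 28 weeks the block left 0 podocyte, fibroblast, epithelial and platelet calls and 2 mural ones, with DESeq2 there were 4 epithelial and 2 platelet calls, and with controls summed 2 mural, 1 fibroblast and 0 platelet ones; the model of 12 libraries gave 4 fibroblast and 2 epithelial calls. Both limma fits gave 3 epithelial calls, and RLE size factors and the filter of 1 CPM gave 2 platelet calls. At 20 weeks the model of 12 libraries gave 4 mural and 2 podocyte calls, and leukocyte calls ranged from 0 to 2 over these alternatives. Where an arm was left with 2 libraries, its spread was pooled with that of the other group. Vwf was not tested at 20 weeks under the filter of 1 CPM. Few reads limit Vwf, Kdr and Plvap, whose lowest counts were 13, 14 and 20.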
